A study of Mus musculus with 24 samples.

Results

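Expression of 10 genes used to recognise brain pericytes, Atp13a5, Vtn, Pdgfrb, Rgs5, Kcnj8, Abcc9, Cspg4, Anpep, Higd1b and Ndufa4l2, was compared among cells sorted from Wnt medulloblastoma, Shh medulloblastoma and normal hindbrain of mice. The genes were chosen by symbol, among probe sets annotated with a single symbol, and where a gene had several, the one with the highest average signal stood for it. All 10 were measured, among 22180 genes. Rgs5 had 2 such probe sets and the other members 1 each.

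The Wnt tumours came from mice labelled Blbp-Cre with the alleles Ctnnb1 +/Exon3 flox, Trp53 flox/flox and Pik3ca +/flox, in which Cre is driven by the promoter of Blbp, a gene of neural progenitors. The Shh tumours came from Ptch+/- and Ink4c-/- mice, which carry these alleles in the germ line, and the hindbrain came from adult wild-type mice; the labels give a mixed strain background for all and no age for tumour-bearing mice. Each group had 8 arrays labelled as biological replicates, and the arrays were not said to share or not share animals, so p-values measure the spread between these samples. Papain-dissociated tissue was sorted with magnetic beads and antibodies to Cd144 and Cd105, surface proteins of endothelium that the genes Cdh5 and Eng encode. Values are log2 signals as deposited, and a difference is the mean of the first-named group minus that of the second.

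Pericytes wrap brain capillaries inside the basement membrane they share with endothelium, and they help to maintain the blood-brain barrier. Endothelial cells attract them by secreting the growth factor PDGF-B, which binds the receptor encoded by Pdgfrb on the pericyte surface. Brain pericytes also carry an ATP-sensitive potassium channel built from the subunits of Kcnj8 and Abcc9, and they set capillary tone together with arteriolar smooth muscle, the other mural cell of the vessel wall.

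The sort selected for endothelium, and the endothelial markers themselves differed between groups. The mean of 18 endothelial markers was 9.61 to 10.77 in Wnt arrays, 11.01 to 11.49 in Shh arrays and 11.20 to 11.52 in hindbrain arrays. All 18 were lower in Wnt than in hindbrain by limma's moderated test (adjusted p under 0.05 over all genes), among them Cdh5 by a difference of -0.41 ± 0.11 and Eng by -0.74 ± 0.10 (SE, n = 8 per group). In Shh, 3 of 18 were lower and 15 did not pass. Array medians lay between 5.96 and 6.18, and no array correlated below 0.9145 with another. These are bulk samples, in which fewer cells of a type and less RNA per cell cannot be told apart.

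In Wnt cells 6 of the 10 pericyte genes were lower than in hindbrain, none was higher, and 4 did not pass. Of all 22180 genes, 22% were lower and 23.2% higher in the same comparison. The difference was greatest for Atp13a5 and Vtn, with estimates of 32.1-fold and 5.73-fold lower in Wnt. Neither fold is precise: the first rests on Wnt signals near the level of control probe sets, and both moved by over 1.5 times when Wnt arrays that stand apart were left out. The median difference of the 10 was -0.50, beside -0.02 over all genes. The groups did not overlap for Vtn alone among the 10, whereas 9.42% of all genes were lower and 10.6% higher in Wnt without overlap. In Shh cells 1 member was higher than in hindbrain (Kcnj8), 1 was lower (Higd1b) and 8 did not pass, where 18.9% of all genes were higher and 18.9% lower. The median difference of the members in Shh was -0.06, beside -0.02 over all genes. Set against Shh, 7 members were lower in Wnt, none was higher and 3 did not pass, with 17.8% of all genes lower and 18% higher. Here too Vtn alone did not overlap, where 4.32% of all genes were lower and 5.8% higher without overlap. Between Shh and hindbrain every member overlapped, and 5.55% of all genes were lower and 7.13% higher without overlap. The comparisons share arrays, so their counts are not independent of each other.

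**Figure D1:**
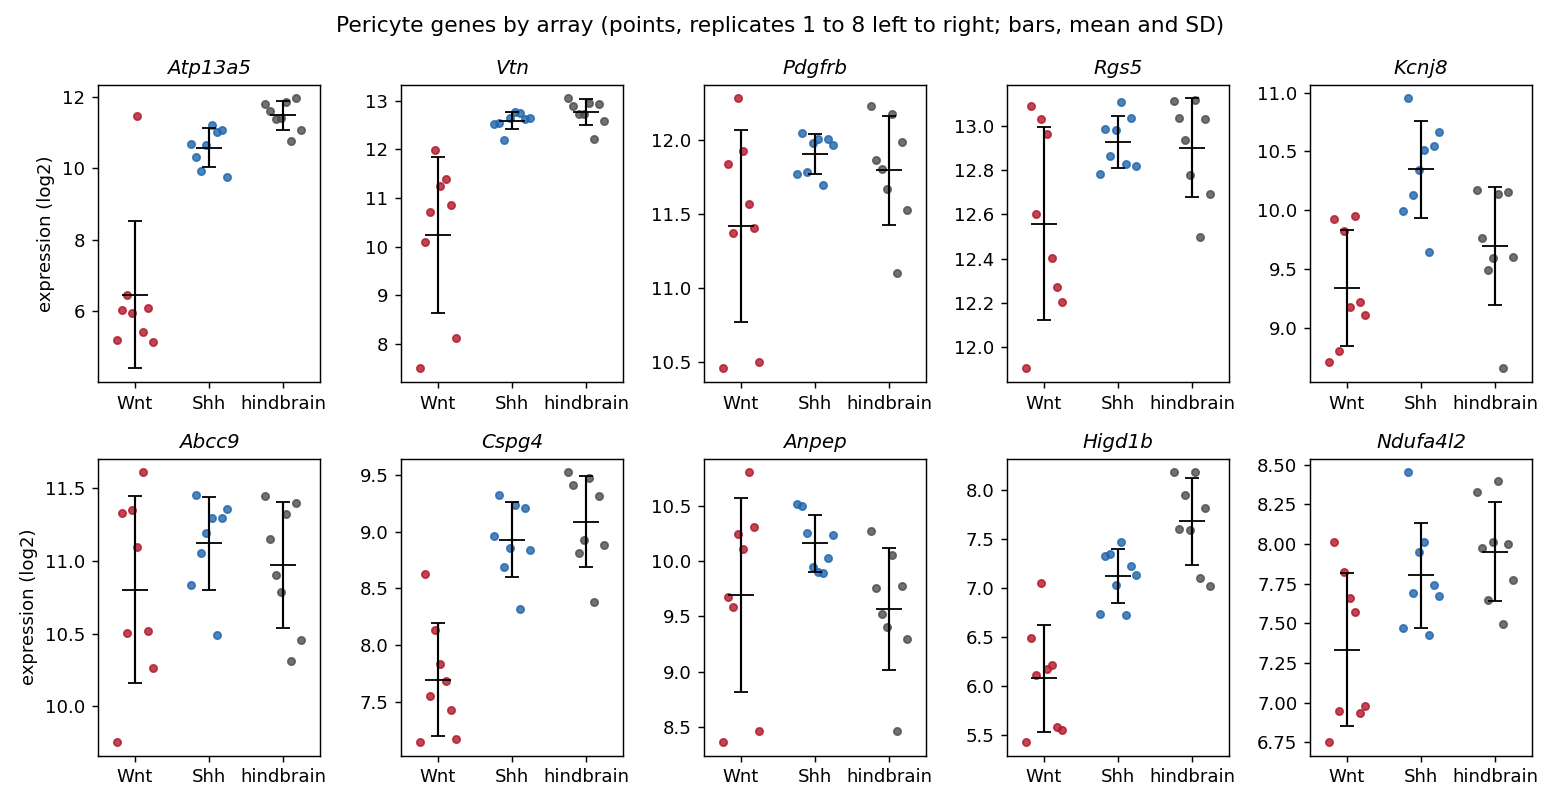
Expression (log2) of each pericyte gene on every array, in Wnt, Shh and hindbrain from left to right, with the 8 replicates as points in number order and the group mean and SD as bars. Wnt replicate 5 stands at 11.45 for Atp13a5 while the other 7 Wnt arrays lie between 5.14 and 6.45, and replicates 1 and 8 are the lowest Wnt arrays for Vtn.

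**Figure D2:**
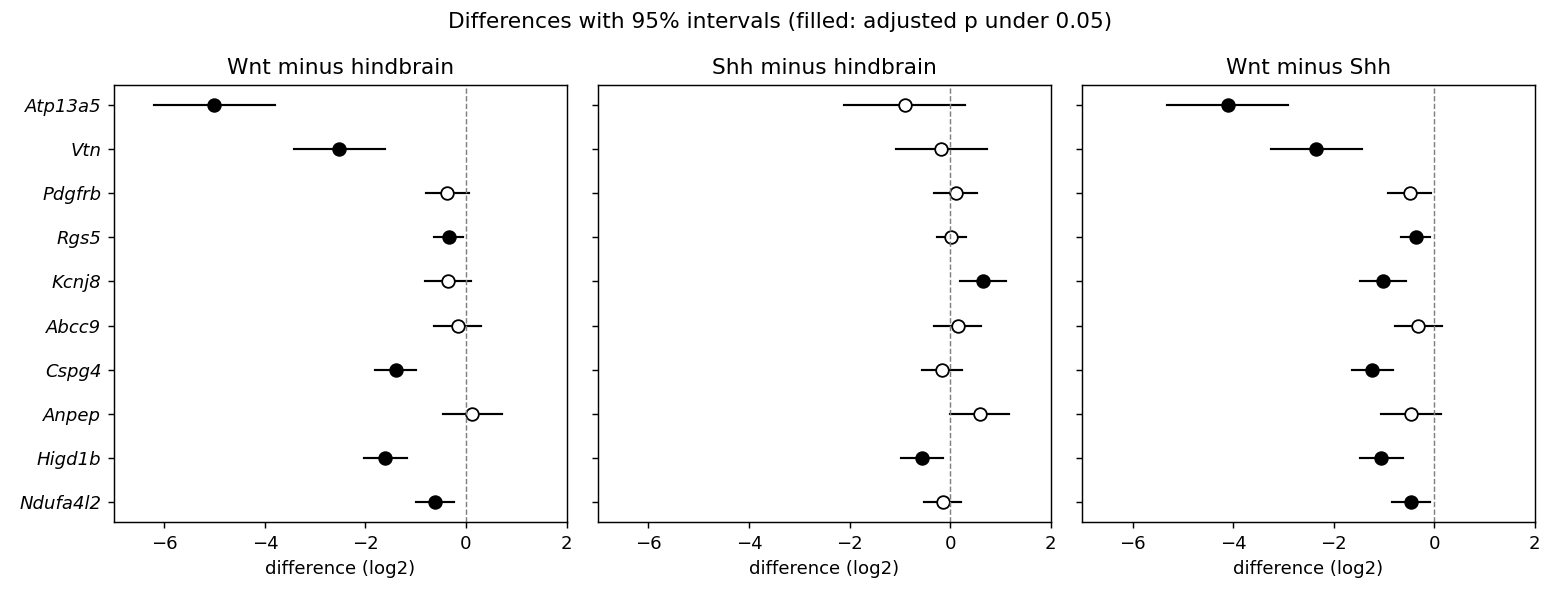
Difference in log2 expression with its 95% confidence interval for each pericyte gene, with a panel for Wnt against hindbrain, one for Shh against hindbrain and one for Wnt against Shh; filled points passed an adjusted p under 0.05. The intervals of Atp13a5, Vtn, Cspg4 and Higd1b lie below 0 in both comparisons that involve Wnt.

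Atp13a5 encodes a P5-type ATPase of the cation transporter family and is used as a marker of pericytes of the central nervous system. Its level in Wnt arrays had a lowest value of 5.14, a median of 5.99 and a highest of 11.45. In Shh arrays it ran from 9.75 through a median of 10.67 to 11.19, and in hindbrain arrays from 10.77 through 11.49 to 11.95. The single high Wnt value belonged to replicate 5, and the other 7 Wnt arrays lay between 5.14 and 6.45, below every Shh and hindbrain array. Of the signals of control probe sets for spiked-in RNAs, 95% were under 5.24, and 2 of the Wnt values of Atp13a5 were below that level, so the size of the difference is uncertain at its low end.

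The difference in Atp13a5 was -5.01 ± 0.58 between Wnt and hindbrain (SE, 95% interval -6.21 to -3.80, limma adjusted p = 9.76e-08). Without Wnt replicate 5 it was -5.72 ± 0.23 (limma adjusted p = 4.32e-15). Between Wnt and Shh it was -4.11 ± 0.58 (limma adjusted p = 3.76e-06). The difference between Shh and hindbrain, -0.90, did not pass when all 3 groups shared a spread estimate (SE 0.58, limma adjusted p = 0.237). It passed once Wnt replicate 5, which entered only through that shared spread, was left out (SE 0.23, limma adjusted p = 0.00292), or when the Shh and hindbrain arrays were fitted alone (limma adjusted p = 0.00284). The level of Atp13a5 was thus ordered Wnt, Shh, hindbrain from low to high, with the step between Shh and hindbrain passing only in those fits.

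Over all 22180 genes, Atp13a5 was the one with the greatest excess of Wnt replicate 5 over the median of the other 7 Wnt arrays, 5.51. This view was chosen after the values had been seen. The next 3 genes by this excess, Uty, Eif2s3y and Kdm5d, are Y-linked. Uty stood at 8.97 in Wnt replicate 5, at 3.81 to 8.84 in the other 7 Wnt arrays, at 3.85 to 8.86 in Shh arrays and at 3.89 to 8.76 in hindbrain arrays, so all groups held arrays with high and with low Uty. The Wnt array at 8.84 for Uty was among those at 6.45 or less for Atp13a5. Any relation between the sex of the mice and Atp13a5 was not tested. Slc6a20a, further down the same order, which encodes a proline transporter of brain pericytes and meninges and belongs to the list of further mural genes, had the same shape. It stood at 10.51 in Wnt replicate 5, against 5.88 to 7.68 in the other 7 Wnt arrays, 8.79 to 10.34 in Shh arrays and 9.72 to 11.33 in hindbrain arrays. Its difference was -3.53 ± 0.43 between Wnt and hindbrain (SE, limma adjusted p = 2.11e-07). Slc6a13, a GABA and taurine transporter that meningeal fibroblasts also express, stood at 10.87 in Wnt replicate 5, against 6.09 to 9.14 in the other 7. Replicate 5 was not set apart for the remaining members: Vtn stood at 11.25 there, Cspg4 at 7.83 and Higd1b at 6.17, each inside the range of the other 7 Wnt arrays. The number of genes at least 3 above the median of the other Wnt arrays was 12 for replicate 5 and 7 to 15 for the others.

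**Figure D3:**
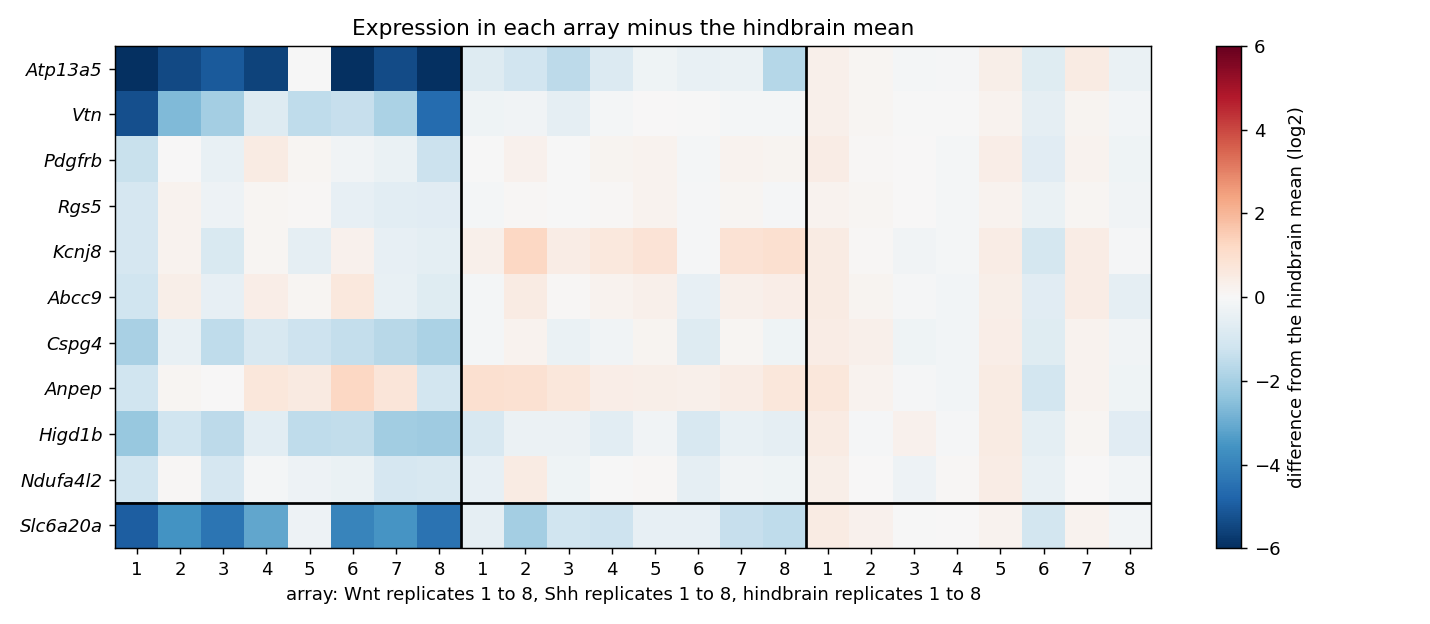
Expression of the 10 pericyte genes, and of Slc6a20a below the line, on each array minus the hindbrain mean of that gene (log2, blue lower and red higher), with Wnt, Shh and hindbrain replicates 1 to 8 from left to right. Atp13a5 and Slc6a20a are low in 7 Wnt arrays and near the hindbrain mean in replicate 5, and Vtn is lowest in Wnt replicates 1 and 8.

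Vtn encodes vitronectin, an adhesive glycoprotein that brain pericytes secrete and that endothelial integrins bind. In Wnt arrays it ran from 7.50 through a median of 10.78 to 11.99. Shh arrays held it between 12.20 and 12.77 with a median of 12.63, and hindbrain arrays between 12.21 and 13.05 with a median of 12.81. Every Wnt array was thus below every Shh and hindbrain array, while Shh and hindbrain overlapped. The difference was -2.52 ± 0.44 between Wnt and hindbrain (SE, limma adjusted p = 3.45e-05) and -2.35 ± 0.44 between Wnt and Shh (limma adjusted p = 0.000135). Between Shh and hindbrain it was -0.17, with a 95% interval from -1.08 to 0.73. Like the others given here, that interval uses a spread shared by all 3 groups. For Vtn the SD was 1.60 in Wnt, 0.18 in Shh and 0.27 in hindbrain, so its width comes mostly from the Wnt arrays. Wnt replicates 1 and 8 were the lowest, and without both the difference in Vtn was -1.71 ± 0.20 between Wnt and hindbrain (SE, limma adjusted p = 1.81e-07) and -1.54 ± 0.20 between Wnt and Shh (limma adjusted p = 1.74e-06).

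The promoters of these 2 most reduced members are shown here as RefSeq gives them for GRCm38.p6, from 250 bases before the annotated start to 50 after it, 5′ to 3′ on the strand of the gene. Capitals mark matches, on either strand, to TGGGAA, the core bound by RBPJ, the nuclear partner of Notch receptors. The Atp13a5 window is chr16:29378683-29378982 on the minus strand, and the Vtn window is chr11:78498870-78499169 on the plus strand.
Atp13a5: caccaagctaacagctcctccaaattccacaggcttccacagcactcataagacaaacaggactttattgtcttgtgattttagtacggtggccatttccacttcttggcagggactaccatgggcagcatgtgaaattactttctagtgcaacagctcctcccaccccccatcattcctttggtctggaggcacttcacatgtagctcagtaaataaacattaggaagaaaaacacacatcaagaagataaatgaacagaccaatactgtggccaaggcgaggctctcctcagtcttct
Vtn: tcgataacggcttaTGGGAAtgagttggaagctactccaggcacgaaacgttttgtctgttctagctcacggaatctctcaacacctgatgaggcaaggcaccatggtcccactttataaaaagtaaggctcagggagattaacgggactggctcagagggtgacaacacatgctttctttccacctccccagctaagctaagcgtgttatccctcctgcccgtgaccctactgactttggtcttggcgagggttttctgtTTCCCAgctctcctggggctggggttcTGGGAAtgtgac
The Vtn window held 3 matches and the Atp13a5 window none, and 25.6% of the 32851 promoter windows in the table held at least 1. TGTTTAC, a forkhead core, was in neither window and in 3.65% of all windows. ACGTG, the core of the hypoxia response element, was in neither and in 19.6% of all. Matches of letters are a description and do not show binding.

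Pdgfrb encodes the receptor through which endothelial PDGF-B recruits pericytes, and Rgs5 a GTPase-activating protein for G protein alpha subunits that marks pericytes and smooth muscle. Pdgfrb ran from 10.46 through 11.49 to 12.28 in Wnt arrays, from 11.70 through 11.98 to 12.05 in Shh arrays and from 11.11 through 11.84 to 12.23 in hindbrain arrays. Its groups overlapped throughout. The difference in Pdgfrb was -0.38 ± 0.21 between Wnt and hindbrain (SE, 95% interval -0.80 to 0.05, limma adjusted p = 0.148) and -0.49 ± 0.21 between Wnt and Shh (limma adjusted p = 0.0688). Neither passed, and the same held for Shh minus hindbrain, 0.11 with an interval from -0.31 to 0.54.

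Rgs5 ran from 11.90 through 12.50 to 13.09 in Wnt arrays, from 12.78 through 12.92 to 13.11 in Shh arrays and from 12.50 through 12.98 to 13.12 in hindbrain arrays. The lowest Wnt arrays lay below both other groups, and the highest reached almost to the top of both. The difference in Rgs5 was -0.34 ± 0.14 against hindbrain (SE, limma adjusted p = 0.0487) and -0.37 ± 0.14 against Shh (limma adjusted p = 0.0426). Both calls lie close to the threshold: of 24 fits that each left out 1 array, 19 lost the first and 10 the second. They were lost when Wnt replicate 1 was left out, at -0.25 and -0.27, or when arrays were shifted to the same median, at -0.28 and -0.30. Its second probe set gave -0.14 between Wnt and Shh, which did not pass (limma adjusted p = 0.336).

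Kcnj8 encodes Kir6.1, the pore subunit, and Abcc9 encodes SUR2, the regulatory subunit, of the ATP-sensitive potassium channel of mural cells. Kcnj8 ran from 8.71 through 9.20 to 9.95 in Wnt arrays, from 9.64 through 10.43 to 10.95 in Shh arrays and from 8.65 through 9.68 to 10.17 in hindbrain arrays. It was highest in Shh, and the Wnt and hindbrain arrays overlapped widely. The difference in Kcnj8 was 0.65 ± 0.22 between Shh and hindbrain (SE, limma adjusted p = 0.023), a 1.57-fold higher level, and -1.01 ± 0.22 between Wnt and Shh (limma adjusted p = 0.000788). Wnt and hindbrain differed by -0.36, with an interval from -0.82 to 0.10, and did not pass. Hindbrain replicate 6, at 8.65, lay apart from the other hindbrain arrays. Without it the Shh difference was 0.50 and no longer passed (limma adjusted p = 0.0577), and the Wnt difference against hindbrain was -0.51 and passed (limma adjusted p = 0.0475). Without Shh replicate 2, the highest Shh array, the Shh difference was 0.57 and did not pass either (limma adjusted p = 0.0534).

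Abcc9 ran from 9.75 through 10.81 to 11.61 in Wnt arrays, from 10.49 through 11.24 to 11.45 in Shh arrays and from 10.31 through 11.03 to 11.44 in hindbrain arrays. None of its 3 differences passed: -0.17 with an interval from -0.64 to 0.30 for Wnt minus hindbrain, 0.15 from -0.32 to 0.62 for Shh minus hindbrain, and -0.32 from -0.79 to 0.15 for Wnt minus Shh. Array by array, however, Kcnj8 and Abcc9 moved together, with Pearson's r of 0.90 in Wnt (Spearman's rho 0.93, exact permutation adjusted p = 0.00912 for r), 0.97 in Shh (rho 0.98, exact permutation adjusted p = 0.00167) and 0.89 in hindbrain (rho 0.90, exact permutation adjusted p = 0.00554). Leaving out the 2 arrays farthest from the median of Kcnj8 gave r of 0.82, 0.97 and 0.83. Most members moved together, with a median r over all 45 pairs of 0.75 in Wnt, 0.52 in Shh and 0.92 in hindbrain. The Kcnj8 and Abcc9 pair was thus below the median in hindbrain and the highest in Shh. In Wnt other pairs were higher, such as Vtn with Anpep at 0.94. The other channel of this kind, of Kcnj11 and Abcc8, is that of neurons and of insulin-secreting cells. Abcc8 was higher in Wnt than in hindbrain by 1.41 ± 0.21 (SE, limma adjusted p = 4.17e-06) and in Shh by 0.69 ± 0.21 (limma adjusted p = 0.0114). Kcnj11 differed from hindbrain by 0.35 ± 0.11 in Wnt, which passed, and by -0.12 ± 0.11 in Shh, which did not.

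Kcnj8 and Abcc9 lie on the same chromosome, with 130660 bases between their annotated starts in GRCm38.p6, so their promoters are set side by side. Both windows are on the minus strand, chr6:142571565-142571864 for Kcnj8 and chr6:142702225-142702524 for Abcc9, with TGGGAA or its reverse complement in capitals.
Kcnj8: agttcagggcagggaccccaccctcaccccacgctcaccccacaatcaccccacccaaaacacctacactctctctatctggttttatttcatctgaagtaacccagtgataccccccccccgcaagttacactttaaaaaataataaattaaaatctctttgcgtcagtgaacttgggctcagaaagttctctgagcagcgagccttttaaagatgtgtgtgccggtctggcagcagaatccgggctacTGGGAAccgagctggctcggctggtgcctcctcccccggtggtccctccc
Abcc9: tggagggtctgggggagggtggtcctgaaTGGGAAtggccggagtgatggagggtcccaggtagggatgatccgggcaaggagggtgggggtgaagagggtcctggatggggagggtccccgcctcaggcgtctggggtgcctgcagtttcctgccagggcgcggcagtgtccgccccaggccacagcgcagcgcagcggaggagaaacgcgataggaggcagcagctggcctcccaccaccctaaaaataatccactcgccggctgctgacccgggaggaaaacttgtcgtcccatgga
Each held 1 such match. Neither held TGTTTAC or ACGTG, and of the 7 members whose promoters are in the table none held them.

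Cspg4 encodes NG2, a chondroitin sulfate proteoglycan on pericytes and on oligodendrocyte precursors, and Anpep encodes CD13, a membrane aminopeptidase of pericytes. Cspg4 ran from 7.14 through 7.61 to 8.63 in Wnt arrays, from 8.32 through 8.91 to 9.32 in Shh arrays and from 8.38 through 9.12 to 9.52 in hindbrain arrays. A single Wnt array, replicate 2 at 8.63, reached into the range of both other groups. The difference in Cspg4 was -1.40 ± 0.20 between Wnt and hindbrain (SE, limma adjusted p = 1.88e-06), a 2.63-fold lower level, and -1.24 ± 0.20 between Wnt and Shh (limma adjusted p = 1.89e-05). Shh differed from hindbrain by -0.16, with an interval from -0.57 to 0.25.

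Anpep ran from 8.37 through 9.89 to 10.80 in Wnt arrays, from 9.89 through 10.13 to 10.52 in Shh arrays and from 8.47 through 9.64 to 10.27 in hindbrain arrays. It was the member with no lower mean in Wnt than in hindbrain, at a difference of 0.12 with an interval from -0.47 to 0.72. Shh exceeded hindbrain by 0.59 ± 0.29 (SE, limma adjusted p = 0.11), which did not pass with all groups in the fit and passed when those 2 groups were fitted alone (limma adjusted p = 0.0229).

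Higd1b and Ndufa4l2 encode small proteins placed in mitochondria, the second a relative of a respiratory chain subunit that is induced by hypoxia, and both mark pericytes in mouse brain. Higd1b ran from 5.42 through 6.14 to 7.06 in Wnt arrays, from 6.72 through 7.18 to 7.47 in Shh arrays and from 7.03 through 7.71 to 8.19 in hindbrain arrays. Its means were ordered Wnt, Shh, hindbrain from low to high, and each step passed. Its lowest Wnt value lay close to 5.24, under which 95% of the control probe set signals fell. The size of its Wnt differences is thus uncertain. The difference in Higd1b was -1.61 ± 0.21 between Wnt and hindbrain (SE, limma adjusted p = 4.48e-07), -1.05 ± 0.21 between Wnt and Shh (limma adjusted p = 0.000238) and -0.56 ± 0.21 between Shh and hindbrain (limma adjusted p = 0.0354). The step between Shh and hindbrain no longer passed without hindbrain replicate 1, 3, 5 or 7 or without Shh replicate 1, 4 or 6, each left out alone.

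Ndufa4l2 ran from 6.75 through 7.28 to 8.01 in Wnt arrays, from 7.42 through 7.72 to 8.45 in Shh arrays and from 7.49 through 7.99 to 8.40 in hindbrain arrays. It was lower in Wnt than in hindbrain by -0.62 ± 0.18 (SE, limma adjusted p = 0.00676). The difference between Wnt and Shh, -0.47 ± 0.18, passed narrowly (limma adjusted p = 0.0468), and 14 of 24 fits that each left out 1 array lost it, among them that without Wnt replicate 1, at -0.38 (limma adjusted p = 0.104). Shh differed from hindbrain by -0.15, with an interval from -0.53 to 0.22.

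The members also differed in how much they varied from array to array. Their SD ran from 0.44 to 2.07 with a median of 0.60 in Wnt, from 0.12 to 0.54 with a median of 0.30 in Shh and from 0.22 to 0.55 with a median of 0.40 in hindbrain. The median SD over all genes was 0.21 in Wnt, 0.21 in Shh and 0.18 in hindbrain. The SD was larger in Wnt than in hindbrain for 9 of the 10, larger in Wnt than in Shh for all 10, and smaller in Shh than in hindbrain for 8. Many members moved together from array to array, as given below, so these counts do not rest on independent genes. Spread was tested by fitting limma to the absolute deviation of each array from its group mean, over all genes.

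Vtn had a wider spread in Wnt, SD 1.60, than in hindbrain, SD 0.27 (limma adjusted p = 0.0178), where 3.04% of all genes had a wider spread in Wnt. Against Shh, SD 0.18, it was also wider (limma adjusted p = 0.0167), as was Rgs5, SD 0.44 in Wnt against 0.12 in Shh (limma adjusted p = 0.0352), where 1.45% of all genes were wider in Wnt. No other member passed in any comparison, including Atp13a5 with its SD of 2.07 in Wnt against 0.40 in hindbrain (limma adjusted p = 0.274). Between Shh and hindbrain no member passed by limma, and none had an unadjusted p under 0.05, where 0.568% of all genes had a wider spread in Shh. The spread of Vtn rested on Wnt replicates 1 and 8. Without them no member passed between Wnt and hindbrain and Rgs5 alone passed between Wnt and Shh (limma adjusted p = 0.0361). Leaving out either of them alone also ended both calls of Vtn, and the call of Rgs5 was lost in 8 of 24 fits that each left out 1 array. With squared deviations, or deviations from the group median, no member passed.

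The arrays with low values were much the same from gene to gene. Within Wnt, replicate 1 was lowest for 9 of the 10 members and replicate 8 for Atp13a5. Within hindbrain, replicate 6 was lowest for 9 members, and replicate 1 was highest for 7. Within Shh, replicate 6 was lowest for 7 members. The mean of the 18 endothelial markers was 9.77 and 9.61 in Wnt replicates 1 and 8, against 10.09 to 10.77 in the other Wnt arrays. It was 11.20, the lowest of its group, in hindbrain replicate 6, and 11.49, the highest of its group, in Shh replicate 6.

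Correlations were computed for the 45 pairs of members in each group, 135 in all, over 8 arrays. The median Pearson's r was 0.75 in Wnt, 0.52 in Shh and 0.92 in hindbrain, and by exact permutation tests 21, 9 and 42 pairs had an adjusted p under 0.05 (19, 7 and 34 by Spearman's rho). Leaving out the 2 arrays farthest from the median left a median r of 0.57, 0.22 and 0.86. In hindbrain every pair was positive, from 0.72 to 0.99, and Atp13a5 with Vtn reached 0.95 (rho 0.90, exact permutation adjusted p = 0.00405). The same pair had r of 0.39 in Wnt (rho 0.38, exact permutation adjusted p = 0.436) and 0.61 in Shh (rho 0.45, exact permutation adjusted p = 0.14). In Shh, Atp13a5, Vtn and Anpep stood outside the covariation of the others, with r of -0.09, 0.08 and 0.05 against the mean of the remaining members, while the other 7 had 0.71 to 0.93. The difference in r between groups was not tested.

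**Figure D4:**
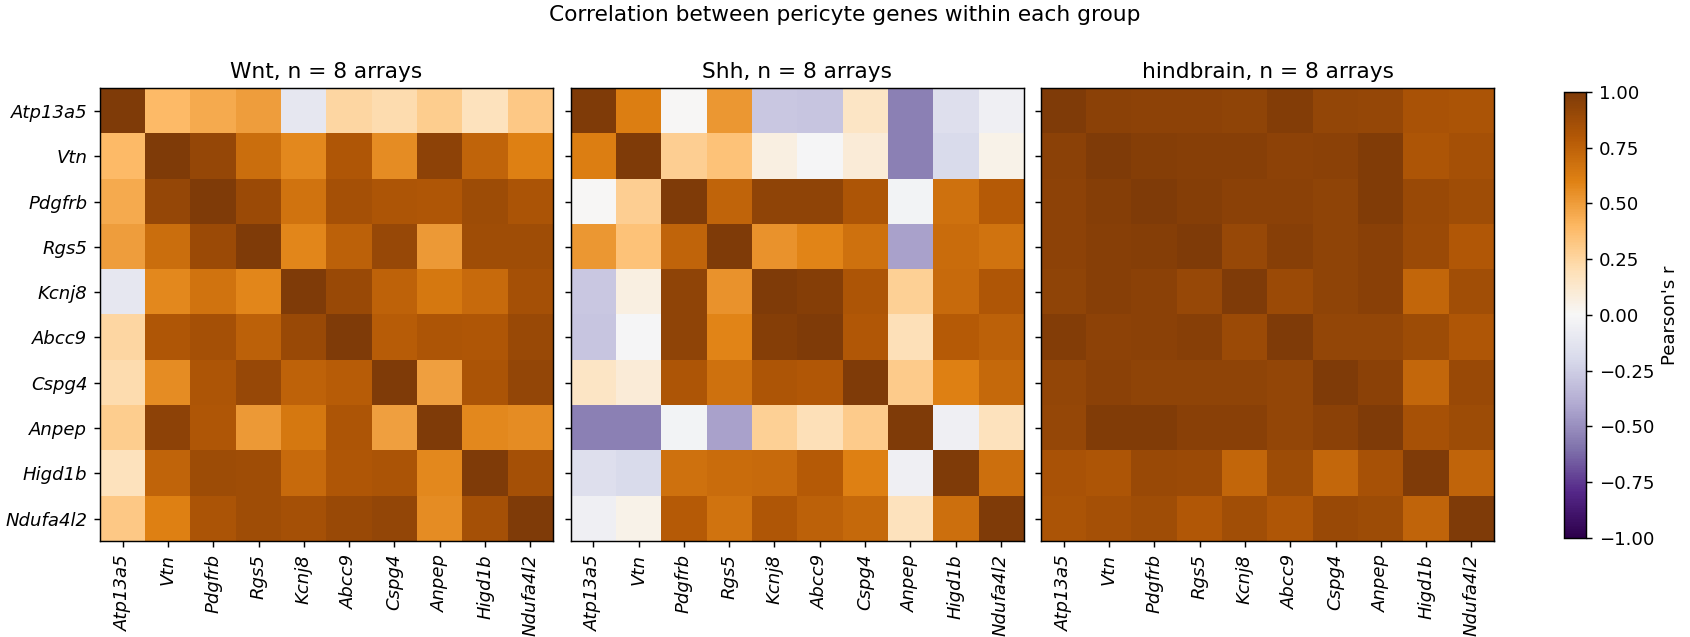
Pearson's r between each pair of pericyte genes over the 8 arrays of Wnt, Shh and hindbrain, from -1 (purple) to 1 (brown). All 45 pairs are positive in hindbrain, whereas Atp13a5 in Wnt, and Atp13a5, Vtn and Anpep in Shh, have low or negative r with other members.

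The genes most like the members were ranked, among 16489 genes with a mean above the level of the control probe sets, by Pearson's r with the mean of the 10 after group means had been subtracted, over 24 arrays and as a description. They were Gucy1a1 with r of 0.96, Aspn with 0.95, Ppp1r14a with 0.95, Gucy1b1 with 0.93, Notch3 with 0.93, Mcam with 0.93, Nid1 with 0.92 and Ano1 with 0.92. All points share the array and its sort. Of the 8, 4 were in the list of further mural genes. Within Shh alone, Notch3 had r of 0.45 and Ano1 -0.16.

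Of 33 further pericyte and mural genes measured, 16 were lower, 9 higher and 8 did not pass in Wnt against hindbrain, with a median difference of -0.60. In Shh against hindbrain, 7 were lower, 10 higher and 16 did not pass, with a median of 0.08. Transcription factors of brain mural cells were among the lower ones in Wnt, chosen here after their values were seen: Foxf2 differed from hindbrain by -1.60 ± 0.24 in Wnt and 0.16 ± 0.24 in Shh, Foxc1 by -1.80 ± 0.17 and -0.18 ± 0.17, and Tbx18 by -1.03 ± 0.25 and 0.25 ± 0.25 (SE). All 3 passed in Wnt and none in Shh. Other factors of the list differed in pattern. Ebf1 was at -1.96 ± 0.20 in Wnt, which passed, and at -0.43 ± 0.20 in Shh, which did not, although no Shh array overlapped hindbrain. Zic1 was at -0.67 ± 0.33 in Wnt, which did not pass, and was higher in Shh by 1.31 ± 0.33 (SE). It also belongs to the list of granule neuron precursor genes, of which 11 of 12 were higher in Shh. From which cells its signal came was not tested. Heyl passed in neither, at -0.51 ± 0.22 and 0.21 ± 0.22 (SE). Notch3, the receptor through which mural cells mature, was lower in both tumours, by -0.91 ± 0.21 in Wnt and -0.73 ± 0.21 in Shh (SE, limma adjusted p = 0.00101 and 0.00834). Gper1, a membrane receptor for oestrogen, was lower by -2.19 ± 0.16 in Wnt and -0.51 ± 0.16 in Shh (SE). Nrip2, a nuclear receptor interacting protein, was lower by -1.30 ± 0.11 in Wnt and -1.63 ± 0.11 in Shh (SE).

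Some mural genes went the other way. Steap4, a metalloreductase, was higher than in hindbrain by 3.51 ± 0.22 in Wnt and 3.50 ± 0.22 in Shh, and Cygb, the oxygen-binding cytoglobin, by 2.49 ± 0.21 and 1.61 ± 0.21 (SE, limma adjusted p under 0.05 in all 4). Pde5a, the phosphodiesterase that degrades cyclic GMP, was higher in Wnt than in Shh by 1.69 ± 0.13 (SE). Zic1, by contrast, was lower in Wnt than in Shh, by -1.99 ± 0.33 (SE).

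The ligand for Pdgfrb was lower in Wnt. Pdgfb, expressed by endothelium, ran from 8.55 through 9.73 to 10.28 in Wnt arrays, from 10.83 through 11.22 to 11.44 in Shh arrays and from 11.25 through 11.43 to 11.57 in hindbrain arrays. Every Wnt array lay below every array of the other groups. The same held for 9.42% of all genes against hindbrain and for 4.32% against Shh. Of the 18 endothelial markers it held for 12 against hindbrain and 9 against Shh, with a median difference from hindbrain of -0.94. The difference in Pdgfb was -1.89 ± 0.19 between Wnt and hindbrain (SE, limma adjusted p = 6.04e-09) and -0.25 ± 0.19 between Shh and hindbrain, which did not pass. Pdgfd, the other ligand that binds this receptor, was lower in both tumours, by -1.56 ± 0.18 in Wnt and -0.50 ± 0.18 in Shh (SE), although 6 of 24 fits that each left out 1 array lost the call in Shh. Pdgfc, a ligand of the alpha receptor, was higher by 3.72 ± 0.21 in Wnt and 1.91 ± 0.21 in Shh, and Pdgfra, that receptor, by 2.48 ± 0.33 and 1.90 ± 0.33 (SE). Pdgfrl, a receptor-like gene, was higher by 1.44 ± 0.22 in Wnt and 1.09 ± 0.22 in Shh (SE). Pdgfa differed by 0.09 ± 0.09 in Wnt, which did not pass, and by -0.30 ± 0.09 in Shh, which did (SE).

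Of 25 other genes that carry signals between endothelium and pericytes, 12 were higher, 11 lower and 2 did not pass in Wnt against hindbrain, and 6 were higher, 8 lower and 11 did not pass in Shh. Bmp4 and Mdk, which encode secreted growth factors, were the 2 greatest rises in Wnt, by 2.93 ± 0.16 and 2.80 ± 0.17, and Edn1 and Edn3, which encode endothelins, the 2 greatest falls, by -3.92 ± 0.41 and -2.13 ± 0.24 (SE). In Shh, Angpt2, an antagonist of the receptor Tie2, was higher by 2.68 ± 0.34, and Edn3 was lower by -2.21 ± 0.24 (SE). Bmp4 and Mdk were also higher in Shh, by 0.72 ± 0.16 and 0.75 ± 0.17, Angpt2 also in Wnt, by 0.84 ± 0.34, and Edn1 did not pass in Shh, at -0.97 ± 0.41 (SE). Angpt2 ran from 7.81 through a median of 8.86 to 11.23 in Wnt arrays and from 7.38 through 8.25 to 8.68 in hindbrain arrays. Its Wnt and hindbrain arrays thus overlapped.

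**Figure D5:**
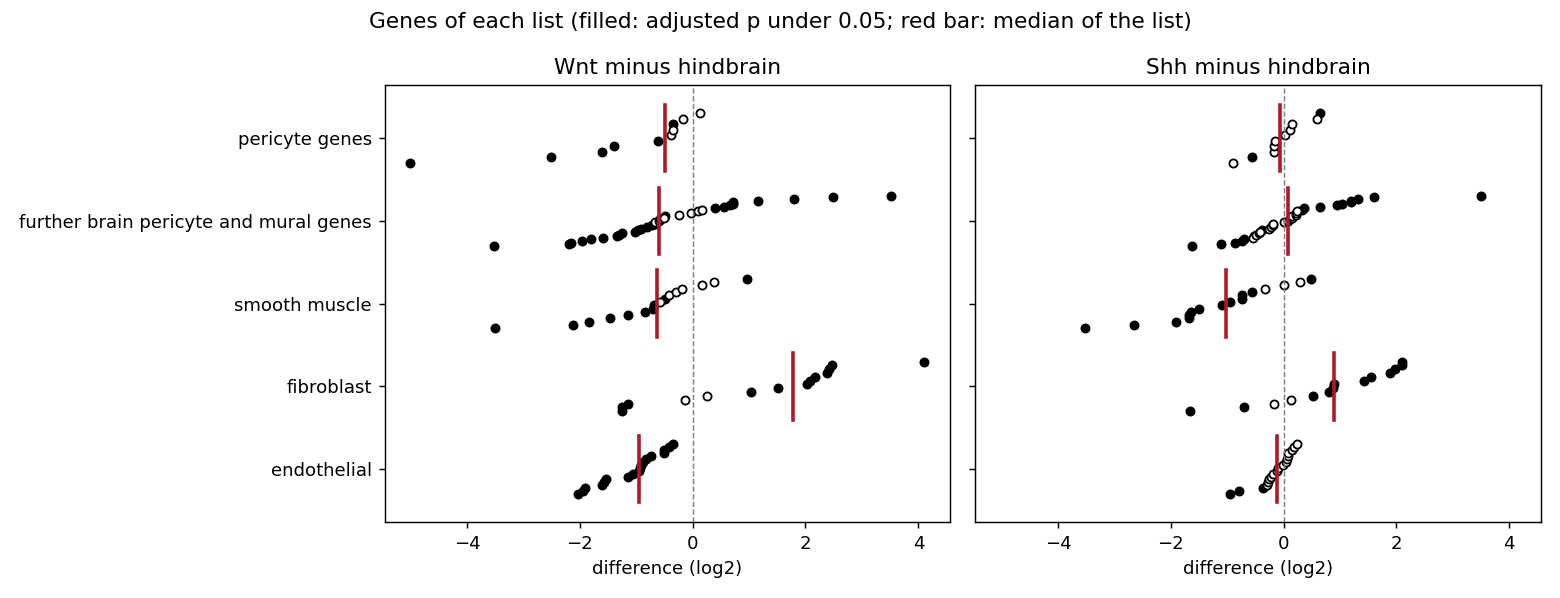
Difference in log2 expression of every measured gene of 5 lists, for Wnt minus hindbrain and Shh minus hindbrain; filled points passed an adjusted p under 0.05 and the red bar is the median of the list. The medians in Wnt are -0.50 for the pericyte genes, -0.60 for the further mural genes, -0.63 for smooth muscle, 1.77 for fibroblast and -0.94 for endothelium.

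Markers of neighbouring cell types differed as well, and their part in the pericyte values was not tested. Of 16 smooth muscle genes, 9 were lower and 1 higher in Wnt, and 12 were lower and 1 higher in Shh. Pln, which encodes phospholamban, was lower by -3.50 ± 0.12 in Wnt and -3.53 ± 0.12 in Shh, and Myh11, smooth muscle myosin, by -2.12 ± 0.15 and -2.65 ± 0.15 (SE). The mean of the smooth muscle list had a median of 8.11 over Wnt arrays, 7.87 over Shh arrays and 9.06 over hindbrain arrays. Of 14 fibroblast genes, 9 were higher and 3 lower in Wnt, and 10 higher and 2 lower in Shh, with list means of 8.60 to 9.61, 8.63 to 9.61 and 7.66 to 8.29 in Wnt, Shh and hindbrain. Fbln1, an extracellular matrix protein, was higher by 4.10 ± 0.18 in Wnt and 0.90 ± 0.18 in Shh, and Col1a1, a collagen, by 2.17 ± 0.28 and 2.09 ± 0.28 (SE). Of 15 microglial genes, 13 were lower in Wnt and 10 in Shh, with list means of 7.58 to 9.25, 7.80 to 10.20 and 9.88 to 10.83.

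Further lists were of cells of the brain and tumour. Of 12 granule neuron precursor genes, 4 were higher and 1 lower in Wnt, and 11 higher and none lower in Shh. Of 11 neuronal genes, 4 were higher and 5 lower in Wnt and 3 higher and 4 lower in Shh, and of 12 astrocyte genes, 4 were higher and 2 lower in Wnt and 6 higher and 1 lower in Shh. Of 13 genes of the oligodendrocyte lineage, 3 were higher and 6 lower in Wnt and 6 higher and 6 lower in Shh. Of 8 choroid plexus genes, 3 were higher and 4 lower in Wnt and 1 higher and 4 lower in Shh. The red blood cell list had 1 measured gene, Slc4a1, which was lower in both tumours.

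The pericyte differences in Wnt depended on how the lower endothelial signal was treated. When every array was shifted to the same mean of the endothelial markers, the median difference of all genes between Wnt and hindbrain moved to 1.08, and 3 members remained lower than in hindbrain: Atp13a5 at -3.90, Vtn at -1.42 and Higd1b at -0.51. On that scale 6 members were higher, among them Rgs5 at 0.76 and Pdgfrb at 0.73, and Cspg4, at -0.29, did not pass. Of all genes called on it, 97.4% were higher, so the higher members follow the shift of all genes. Relative to the median of all genes, the differences were -4.98 for Atp13a5, -2.50 for Vtn, -0.32 for Rgs5 and -0.35 for Pdgfrb. These are the same with and without the shift by construction, since a constant per array cancels. They are therefore not differences corrected for the endothelial signal. With the endothelial mean as a covariate, no member was lower in Wnt than in hindbrain, Pdgfrb at 0.89 and Anpep at 1.51 were higher, and Atp13a5, at -2.65, did not pass (limma adjusted p = 0.0763). In that fit Vtn was at 0.36. Group and endothelial mean are largely the same contrast there, since the Wnt arrays lie below all others, and 3821 genes passed in place of 10040.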

How the data were processed

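Values were read from the deposited series table, which holds log2 intensity per probe set and array, as the values deposited by the authors show by their range. Partek 6.6 is named per the submitters' processing notes, with no role; how probes were summarised and normalized is not given in the sources used here. No genome build was given for the array, so positions of its probe sets are not printed. Promoter windows and their positions come from RefSeq tables for GRCm38.p6. Of 41345 probe sets, 190 were controls, 23521 had 1 symbol, 1814 several and 15820 none; 99.2% of single symbols matched a reference gene ID.

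Each of 22180 genes took the probe set of highest average over 24 arrays. With R 4.3.3, the lmFit and eBayes functions of limma 3.58.1 (no trend, 21 residual degrees of freedom) fitted the group as single factor, with no further normalization. A gene passed, or was called, where its two-sided p, adjusted over all genes by the method of Benjamini and Hochberg, was under 0.05. Spread was tested in the same way on absolute deviations from group means, scaled for group size. Pair correlations used exact permutation over 8 arrays, two-sided, adjusted over 135. Arrays give no counts, and their number limits the precision.

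Both fits were tested on simulated data, with noise drawn independently for each gene. For the fit of levels the noise of a gene had the same SD in all 3 groups. That fit was thus not tested at unequal spreads such as those of Vtn and Atp13a5. The spread test at first missed a mark set for the share of changed genes it should recover; its estimates and directions were right, and the mark was then changed to those. It has low power after adjustment and is slightly liberal, so a gene that did not pass is not shown to have equal spread.

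The members and all gene lists were chosen with earlier results of these data known. Named genes were all members, PDGF and potassium channel genes, the 2 greatest rises and falls of each other list among called genes, Cdh5 and Eng, and the 8 genes most like the members. The text names a part of these, and its choice, and genes marked so in the text, came after values were seen. Replicate numbers did not pair arrays: same-numbered arrays correlated between -0.146 and 0.282 in their deviations from group means. Alternatives were quantile normalization, shifts to the same median or endothelial mean, other probe sets, array weights, a filter on dim genes, a trend of variance on level, fits to 2 groups, the endothelial mean as a covariate, a replicate block, leaving out arrays, and for spread squared deviations and deviations from the median.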

Additional observations from a re-analysis of the deposited data

Results flagged for a closer look

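Of 30 sets of 8 arrays, 1 for each pericyte gene and group, 3 had an array far from the others by Dixon's criterion, which chance alone meets in about 1 in 20. Atp13a5 was at 11.45 in Wnt replicate 5, with a gap to the next array of 0.793 of the range. Vtn was lowest in Shh replicate 3, at 12.20, with a gap of 0.55 of the range. Kcnj8 was lowest in hindbrain replicate 6, at 8.65, also with a gap of 0.55 of the range.

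For 2 pericyte genes the effect relative to hindbrain differed between the tumour groups, with estimates on either side of 0 that were in part not distinguished from it. Kcnj8 differed from hindbrain by -0.36 in Wnt, which did not pass, and by 0.65 in Shh. Rgs5 differed by -0.34 in Wnt and by 0.03 in Shh (limma adjusted p = 0.911), and the Shh estimate was negative under several settings. The Wnt effect minus the Shh effect was -1.01 for Kcnj8 (limma adjusted p = 0.000788) and -0.37 for Rgs5 (limma adjusted p = 0.0426). As hindbrain cancels, this is the difference between Wnt and Shh reported above, and for Rgs5 it was lost under several settings.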

How the results depend on the processing

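Leaving out each array in turn, the number of pericyte genes lower in Wnt than in hindbrain was 5 to 7, and 0 were higher. In either direction, 9556 to 10246 of all 22180 genes were called there. In Shh against hindbrain 0 to 2 members were lower and 0 to 1 higher, 1 to 3 in all, beside 7753 to 8538 of all genes. Between Wnt and Shh 5 to 8 members were lower in Wnt, beside 7401 to 8010 of all genes called in either direction. Members with a called spread numbered 0 to 2 for Wnt against hindbrain and for Wnt against Shh, and 0 for Shh against hindbrain. The share of all genes with a called spread in these fits is not given here, so those counts are not set against it. In the fits that left out 1 array, 52 differences of single members lost a call, 6 gained one and 5 turned sign: Anpep in Wnt against hindbrain (from -0.033 without Wnt replicate 6 to 0.31, and -0.032 without hindbrain replicate 6) and Rgs5 in Shh against hindbrain (from -0.033 without hindbrain replicate 6 to 0.056, with -0.0047 without hindbrain replicate 8 and -0.00096 without Shh replicate 5). The call of Pdgfd in Shh was lost in 6 such fits. Of the spreads, Vtn lost its call in 2 fits for each Wnt comparison, and Rgs5 lost its call in 8 for Wnt against Shh and gained a call in 1 for Wnt against hindbrain.

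Shifting arrays to the same endothelial mean gave, for Wnt against hindbrain, 3 members lower and 6 higher with 20859 genes called; for Shh against hindbrain 0 lower and 2 higher with 4140; and for Wnt against Shh 2 lower and 5 higher with 20524. Signs turned there for Wnt against hindbrain in Pdgfrb (0.73), Rgs5 (0.76), Kcnj8 (0.75), Abcc9 (0.93), Ndufa4l2 (0.48), Cdh5 (0.69), Eng (0.36), Tbx18 (0.077) and Notch3 (0.20); for Shh against hindbrain in Ndufa4l2 (4.4e-05), Kcnj11 (0.035) and Eng (0.028); and for Wnt against Shh in Pdgfrb (0.46), Rgs5 (0.58), Abcc9 (0.63), Anpep (0.49), Ndufa4l2 (0.48), Smtn (0.17), Myl9 (0.44), Cdh5 (0.47), Eng (0.33) and Notch3 (0.78). The shift in all genes follows from the construction, since the median of all genes moved by over 0.1: to 1.08, 0.13 and 0.95 in the 3 comparisons, where 97.4%, 72.3% and 98.1% of called genes were higher.

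With the endothelial mean as a covariate, 0 members were lower and 2 higher for Wnt against hindbrain, 2 called in all, with 3821 genes called; 0 were lower and 2 higher for Shh against hindbrain; and 0 were called for Wnt against Shh, with 3321 genes. Signs turned for Wnt against hindbrain in Vtn (0.36), Pdgfrb (0.89), Rgs5 (0.44), Kcnj8 (0.17), Abcc9 (0.84), Ndufa4l2 (0.15), Pdgfa (-0.036), Cdh5 (0.38), Eng (0.024), Tbx18 (0.22) and Notch3 (0.47); for Shh against hindbrain in Vtn (0.22); and for Wnt against Shh in Vtn (0.14), Pdgfrb (0.60), Rgs5 (0.30), Abcc9 (0.56), Anpep (0.73), Ndufa4l2 (0.19), Pdgfra (-0.23), Smtn (0.040), Slc6a13 (0.46), Cdh5 (0.20), Eng (0.042) and Notch3 (1.01).

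With the 2 compared groups alone, Shh against hindbrain had 2 members lower and 2 higher, 4 in all, as Atp13a5 and Anpep also passed. Without Wnt replicates 1 and 8 together, 1 member was higher in Wnt and 2 in Shh than in hindbrain, Abcc9 was at 0.10 in Wnt against hindbrain and Notch3 at 0.13 in Wnt against Shh. For these settings, and for Shh against hindbrain with the covariate, the share of all genes called is not given here. The counts of members are therefore not set against it. Rgs5 in Shh against hindbrain was -0.019 with array weights, -0.088 as the mean of its probe sets and -0.20 by its second probe set, and Smtn -0.14 by its second. Called spreads numbered 0 for Wnt against hindbrain and 1 for Wnt against Shh without Wnt replicates 1 and 8, and 0 for both with squared deviations or deviations from the median. The cause of these changes was not tested.

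The fit with replicate number as a block left 6, 2 and 7 members called for Wnt against hindbrain, Shh against hindbrain and Wnt against Shh, with 9851, 8212 and 7814 genes called in place of 10040, 8385 and 7946, and changed no call of a member. Of 24 pairings of same-numbered arrays from 2 groups, 3 were the best match that the array of the first-named group had in the other group, so the numbers are taken as names only. Shifting arrays to the same median moved the share of higher calls from 51.3% to 59.9% for Wnt against hindbrain and from 50.3% to 62.2% for Wnt against Shh.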
